A study of Mus musculus with 120 samples.

Results

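The 41 genes of the DNA replication machinery were followed through 20 overexpression experiments in mouse embryonic stem (mES) cells. They were listed by name: the MCM helicase (6 genes), the origin recognition complex (6), the helicase loaders (2), the factors that switch the helicase on (6), polymerase alpha and primase (4), polymerases delta and epsilon (4), the sliding clamp and its loader (6), the single-strand binding protein (3), Okazaki fragment joining (2) and ribonucleotide reductase (2). All 41 had a probe set on the Mouse 430_2 array, among 18194 genes with 1. On the smaller Mouse 430A_2 array 39 were found among 12394 genes, Gins2 and Gins3 being the others. A gene was represented by its probe set of highest mean, and all values are log2 signals, so that a difference of induced minus uninduced is a log2 fold change.

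DNA replication begins where the origin recognition complex sits on the chromosome and, with Cdc6 and Cdt1, loads the ring of Mcm2 to Mcm7. Mcm10, Cdc45 and the GINS complex turn that ring into a moving helicase, after which primase and the polymerases copy the strands it opens, held to the template by the clamp Pcna that replication factor C (Rfc1 to Rfc5) loads. mES cells divide fast, with short gap phases, and keep much of this machinery at a high level throughout the cycle.

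Each experiment overexpressed 1 gene of human chromosome 21 (HSA21) or its mouse ortholog in 3 clones, with an array before and an array after induction for each clone, which gave 120 arrays. The clones derive from the EB3 line, in which a coding sequence with a carboxyl-terminal 3xFLAG tag was placed in the ROSA26 locus behind a Tet-off promoter. Uninduced clones were kept in tetracycline (Tc, 1 ug/ml) and induced clones were washed, replated and grown without it, so that withdrawal of Tc and replating go with induction in every experiment. Induction lasted 24 h for Bach1, Dscr1, Dyrk1a, Erg, Ets2, Gabpa, Nrip1, Olig1, Olig2, Pfkl, Pknox1, RIKEN-1810007M14, Runx1, Snf1lk and Zfp295, 39 h for Hunk, Ripk4 and Sim2, and 48 h for Aire and Pdxk. The Zfp295, Dyrk1a and Snf1lk constructs held the human sequence, and the Zfp295 and Hunk clones were grown in more puromycin than the rest. Transgenes held coding sequence alone, which limits what a 3' probe set can see of them: a probe set of the induced gene was higher in all 3 clones in 5 of 20 experiments, and by more than 1 log2 unit in Dscr1 and Runx1. In Erg 0 of 2 probe sets was higher in all 3 clones (largest difference 0.04), so these arrays give no check of the Erg transgene. In Pknox1 the highest mean difference over 3 probe sets was -1.21, so all 3 read lower in the arrays labelled induced. The Pknox1 labels were followed as given, the signs of its values rest on them, and the cause was not tested.

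Array medians lay within 0.09 of each other inside each experiment and between 4.89 and 5.68 over the 19 experiments on the Mouse 430_2 array, so levels were compared only inside an experiment. None of the 10 pluripotency markers fell under the lower quartile of the uninduced arrays in any experiment, against 2 to 5 of 9 fibroblast, 0 to 3 of 9 primitive endoderm, 0 to 1 of 7 trophoblast and 0 to 2 of 6 neural markers. Uninduced clones differed widely in mean endoderm signal in Ets2 (5.65 to 8.80), Pknox1 (5.79 to 8.66) and Olig1 (5.22 to 7.97), and the part of this in the members' values was not tested. The arrays were made from bulk RNA, in which fewer cells in S phase and less RNA per cell cannot be told apart.

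The members moved little. Of 818 values (a gene in an experiment), 96.5% lay within 0.25 of 0 and 1 went beyond 0.5. By limma with the clone as a block and Benjamini-Hochberg adjustment over all probe sets of the array, 9 values (1.10%) passed an adjusted p of 0.05, beside 1.93% of the values of all genes. They belonged to 9 genes in the experiments of Erg (6) and Runx1 (3), and the other 32 members were called in none of the 20 experiments. By role, calls came from the clamp and clamp loader (3 of 120 values), the origin recognition complex (3 of 120), helicase activation (2 of 118) and polymerase alpha and primase (1 of 80). Single-strand binding, polymerases delta and epsilon, the MCM ring, the helicase loaders, Okazaki fragment joining and ribonucleotide reductase had 0 calls by limma. Every member lay above the median probe set signal of its array in each experiment, whereas a share over all genes also counts dimmer genes.

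**Figure D1:**
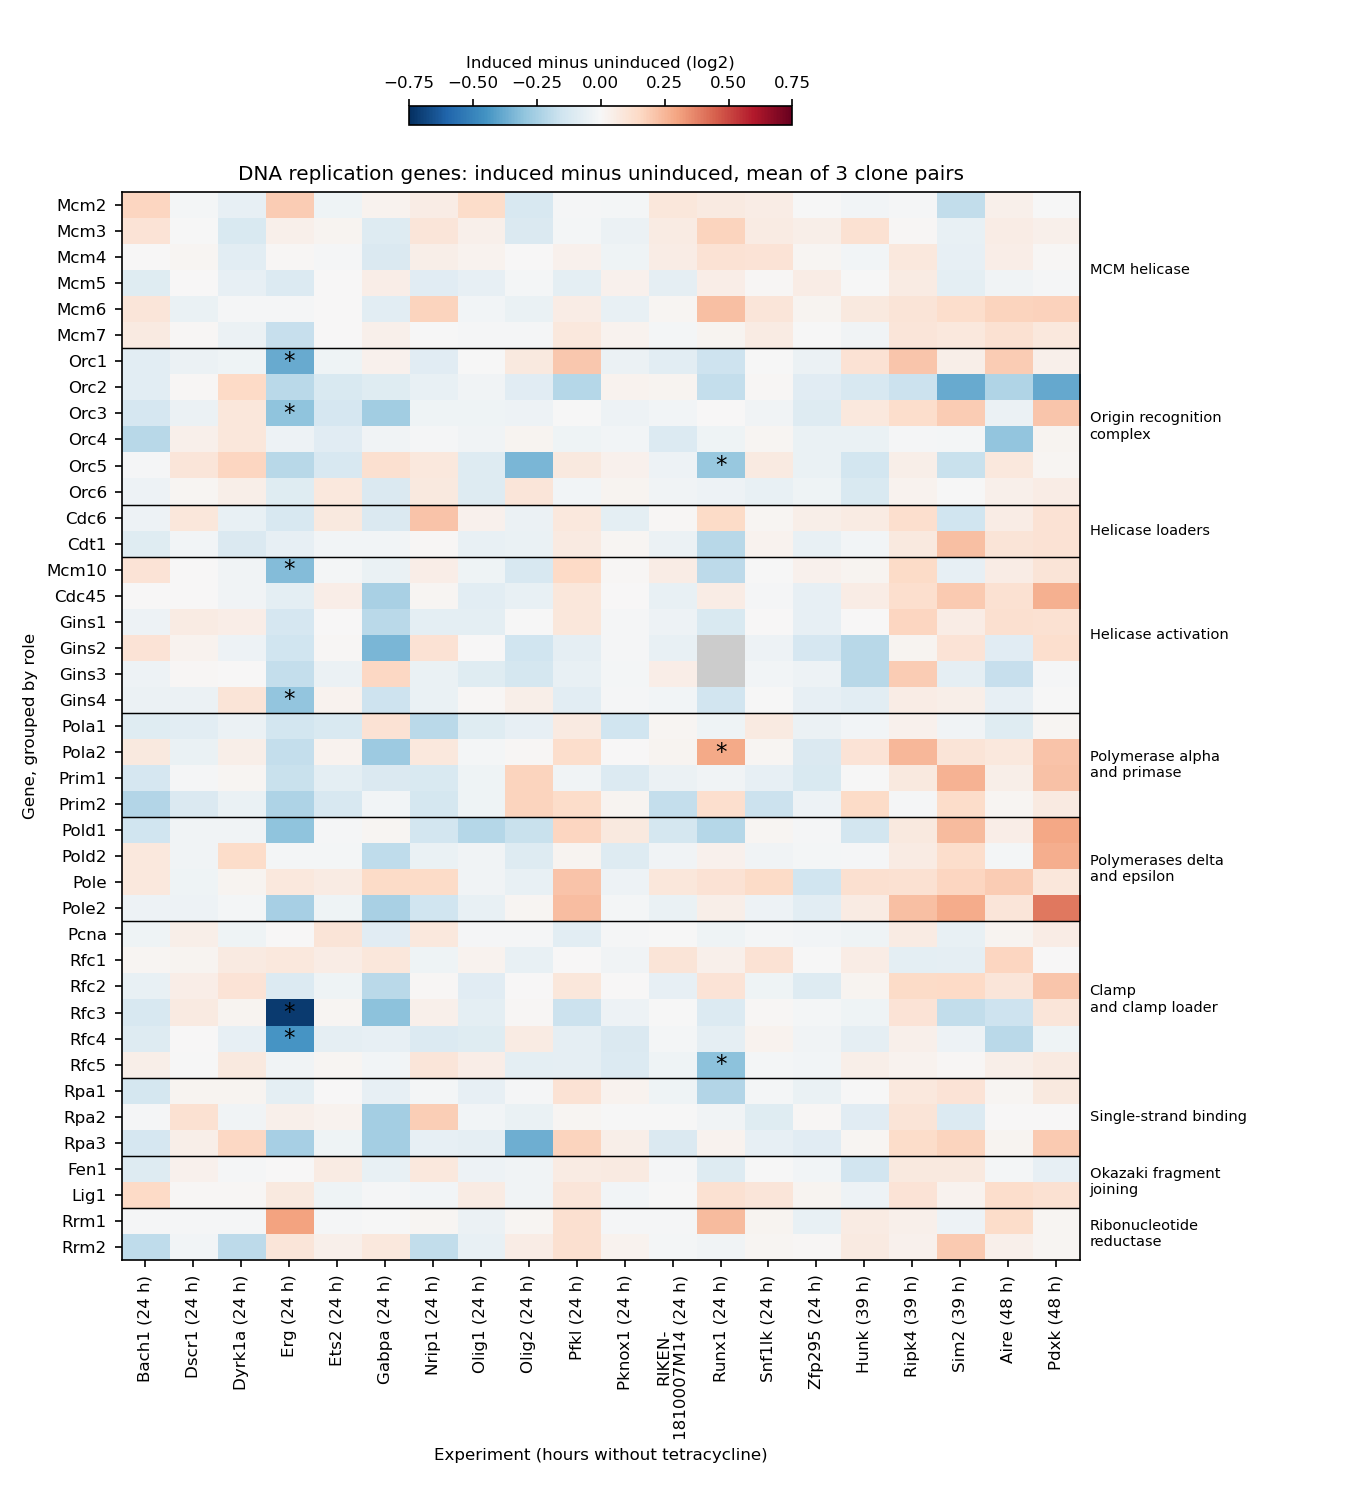
Induced minus uninduced log2 signal (colour, mean of 3 clone pairs) of the 41 genes (rows, grouped by role) in the 20 experiments (columns, ordered by hours without tetracycline). Stars mark an adjusted p under 0.05, which 6 genes reached in Erg and 3 in Runx1, and grey cells are Gins2 and Gins3, which the Runx1 array does not hold.

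The upstream bases of the called members of smallest p are shown so that their starts can be set side by side. RefSeq's promoter table (build GRCm38.p6) held an entry for 34 of the 41 members. Printed are the 250 bases before the start, read 5' to 3' on the gene's own strand, of Rfc3 (chr5:151651209-151651458, minus strand), Rfc4 (chr16:23127731-23127980, minus strand), Rfc5 (chr5:117389024-117389273, minus strand) and Orc5 (chr5:22550339-22550588, minus strand). Capitals mark letters searched for on both strands: CCGGAAG, built on the GGAA core that ETS proteins such as Erg, Ets2 and Gabpa bind, then CCAAT, which NF-Y binds, then TGTGGT, which RUNX proteins bind, and the E2F sequences TTTCCCGC, TTTGGCGC, TTTCGCGC and TTTGCCGC.
Rfc3: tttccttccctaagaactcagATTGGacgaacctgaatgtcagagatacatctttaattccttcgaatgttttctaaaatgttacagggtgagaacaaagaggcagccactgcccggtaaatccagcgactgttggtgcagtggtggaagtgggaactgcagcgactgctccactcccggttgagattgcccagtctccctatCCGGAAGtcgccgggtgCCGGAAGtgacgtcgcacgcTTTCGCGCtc
Rfc4: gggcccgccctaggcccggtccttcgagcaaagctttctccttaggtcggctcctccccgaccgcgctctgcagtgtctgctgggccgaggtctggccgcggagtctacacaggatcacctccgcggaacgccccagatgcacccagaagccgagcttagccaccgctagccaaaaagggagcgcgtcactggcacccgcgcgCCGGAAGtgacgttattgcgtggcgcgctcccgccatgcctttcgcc
Rfc5: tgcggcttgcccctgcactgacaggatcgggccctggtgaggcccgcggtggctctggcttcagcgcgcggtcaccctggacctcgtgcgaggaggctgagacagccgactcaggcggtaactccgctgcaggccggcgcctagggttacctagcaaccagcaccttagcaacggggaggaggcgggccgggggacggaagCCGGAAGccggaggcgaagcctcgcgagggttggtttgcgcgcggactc
Orc5: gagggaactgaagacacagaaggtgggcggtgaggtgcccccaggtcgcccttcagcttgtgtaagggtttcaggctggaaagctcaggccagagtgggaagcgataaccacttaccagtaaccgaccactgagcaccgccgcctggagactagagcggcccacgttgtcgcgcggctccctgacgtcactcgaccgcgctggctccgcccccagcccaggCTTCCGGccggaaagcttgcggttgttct

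CCGGAAG stood in each of these sequences, in the last 49 bases before the start. Rfc3 carried 2 copies on its own strand, at bases 47 to 41 and 30 to 24 before the start, and the E2F letters TTTCGCGC at bases 10 to 3. In Rfc4 it lay at bases 47 to 41, in Rfc5 at 49 to 43, and in Orc5 on the other strand at 29 to 23. Over 27025 genes with an entry the letters occurred in 7.83%, and in 13 of the 34 members (38.2%). All 5 Erg-called members with an entry (Rfc3, Rfc4, Orc1, Mcm10 and Orc3) held them, against 8 of the other 29 members. Members lower in Gabpa than the mean of the other experiments (listed below) went both ways. Orc3 and Rpa2 held the letters, Cdc45 and Pola2 did not. The rest of that list had no entry. Ets2 had 0 called members, and 0 of 18194 genes were called in its experiment. Whether the letters bear on any call was not tested. Of the 3 Runx1-called members, 0 held the RUNX letters (6 of the other 31 members did) and 2 held CCGGAAG. The E2F letters occurred in 9 members (26.5%) against 2.16% of all genes, CCAAT in 23 (67.6%) against 37.5%, and TGTGGT in 6 (17.6%) against 15.9%. These are matches of letters in 1 window, with 6 members having several entries counted together, and no binding was measured.

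In the experiment labelled Erg, an ETS transcription factor, induction was followed by lower signals of 6 of 41 members (14.6%) at 24 h, beside 16.0% of all genes called in either direction and 9.33% called lower. They were the clamp loader subunits Rfc3 and Rfc4, the origin recognition subunits Orc1 and Orc3, and Mcm10 and Gins4, which act when the helicase is switched on. With probe sets under the experiment's median signal left out, 1917 of 11752 genes were called lower and 3248 in either direction, beside 7 of 41 members. The median member difference was -0.10, beside -0.02 over all genes and -0.03 without the dimmer probe sets. In all 3 clones 24 members were lower (58.5%), which held for 28.7% of all genes.

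Rfc3, a small subunit of the clamp loader, read 8.90, 8.78 and 9.12 in the uninduced clones and 8.22, 8.25 and 8.18 in the induced ones. All 3 induced arrays lay below all 3 uninduced ones, and the fitted difference was -0.72 (SE 0.10, n = 3 clone pairs, limma adjusted p = 0.0034), the largest of all 818 values and a 1.64-fold fall. The second Rfc3 probe set gave -0.74 (limma adjusted p = 0.0020). Rfc4, the subunit beside it in the loader ring, read 10.80, 10.48 and 10.55 before and 10.24, 10.05 and 10.21 after induction, again without overlap. It fell by 0.44 (SE 0.08, limma adjusted p = 0.0131), and its second probe set by 0.61 (limma adjusted p = 0.0075).

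Orc1, the ATPase that marks origins, read 9.60, 9.80 and 9.95 in uninduced and 9.31, 9.56 and 9.35 in induced clones (difference -0.38, SE 0.10, limma adjusted p = 0.0420). Its groups did not overlap, but the second induced clone came close to the first uninduced one. Orc3, a structural subunit of the same complex, went from 9.18, 9.28 and 9.13 to 8.90, 8.95 and 8.83 (-0.30, SE 0.08, limma adjusted p = 0.0443). The groups of Orc3 were separate, while its other probe sets differed by -0.28 and -0.02 and were not called. The remaining subunits of the complex were all below 0 in Erg, down to -0.21 for Orc5, without a call.

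Mcm10, which helps to start the assembled helicase, went from 10.47, 10.52 and 10.41 to 10.05, 10.30 and 10.07 (-0.32, SE 0.08, limma adjusted p = 0.0431). The induced and uninduced clones did not overlap, and the other Mcm10 probe sets gave -0.16 and 0.04, neither called. Gins4, a subunit of the GINS complex that rides with the helicase, went from 10.28, 10.39 and 10.48 to 10.004, 10.10 and 10.15 (-0.30, SE 0.08, limma adjusted p = 0.0452). The 3 Gins4 clones dropped by nearly the same amount, 0.28, 0.29 and 0.32. Cdc45 and the other GINS genes differed by -0.07 to -0.18 and did not pass.

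The MCM ring itself had values on both sides of 0 in Erg, from -0.17 (Mcm7) to 0.19 (Mcm2), and the clamp Pcna differed by 0.001. Members above 0 included Rrm1, the large subunit of ribonucleotide reductase, with 11.001, 11.05 and 11.17 before and 11.40, 11.30 and 11.42 after induction (0.30, SE 0.08). Its adjusted p was 0.0526 by limma, and its second probe set was called higher (0.40, limma adjusted p = 0.0212). A dimmer Orc4 probe set was called lower (-0.52, limma adjusted p = 0.0111), whereas the brighter one differed by -0.04.

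**Figure D2:**
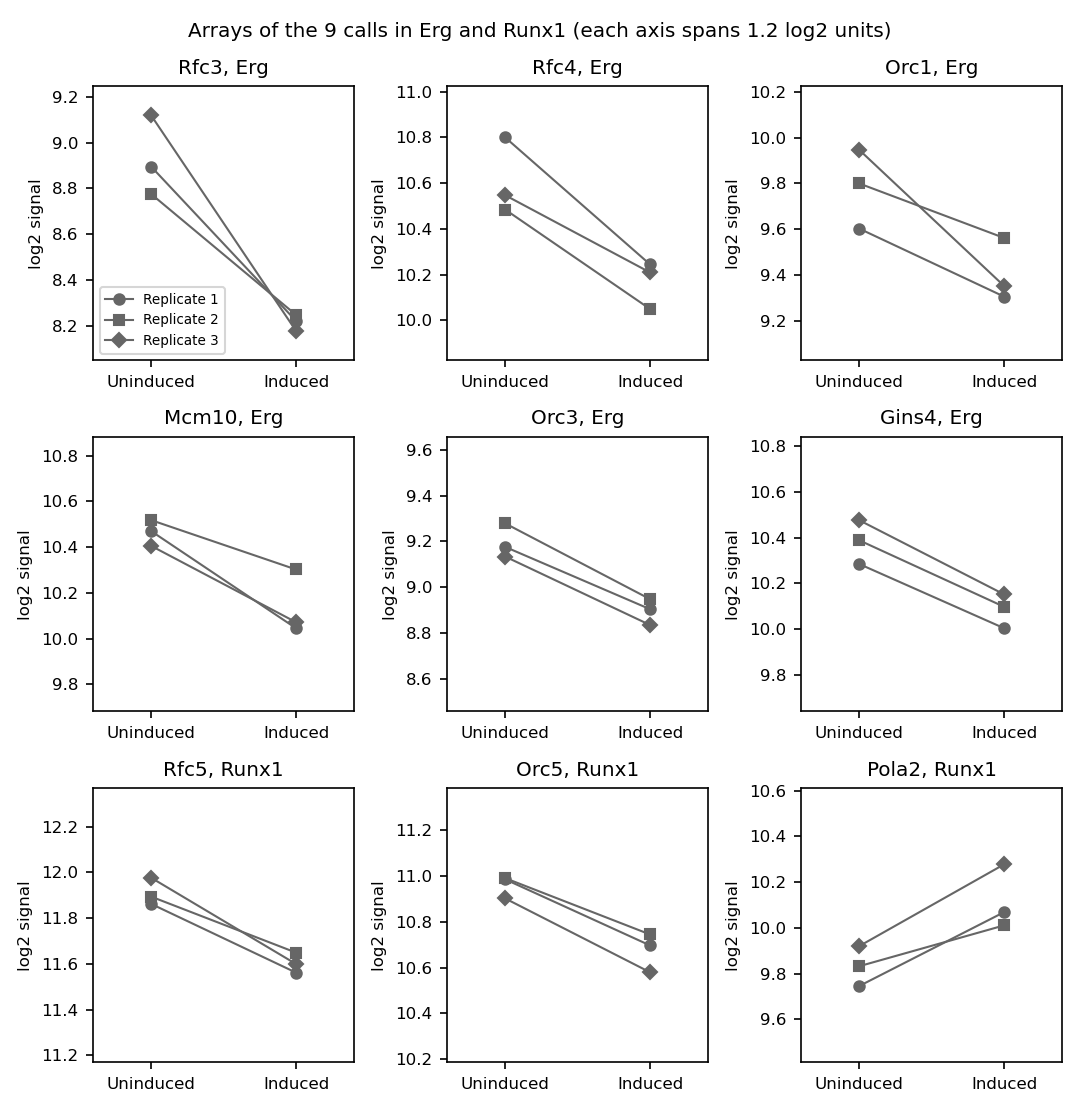
Log2 signal of the 9 called members in the uninduced and induced array of each clone (lines join the arrays of 1 clone, each axis spans 1.2 log2 units). Every line falls in the 6 Erg panels and in Rfc5 and Orc5 of Runx1, and every line rises in Pola2.

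Genes around the machinery moved both ways in Erg. Among licensing and initiation regulators 1 of 20 was called higher (E2f2, 0.84) and 2 lower: Ticrr, which helps to load Cdc45 (-0.91), and Topbp1, its partner (-0.53). Of 19 fork, polymerase and nuclease partners 2 were lower (Pole4, -0.45, and Rnaseh2b, -0.36), of 16 nucleotide supply genes 2 were lower (Umps, -0.51, and Dtymk, -0.33), of 24 mitotic genes 1 was higher (Cdc20, 0.39), and of 14 chromatin assembly genes 0 were called by limma. The inhibitors of cyclin-dependent kinases Cdkn1c (1.06) and Cdkn1a (0.52) rose and Cdkn2a fell (-0.61), 3 of 7 being called. Pluripotency markers were called lower in 6 of 10 cases, and their mean signal was 12.08 to 12.22 in uninduced and 11.69 to 11.82 in induced clones. Of the markers of other cell types, 1 of 9 primitive endoderm genes was lower (Lama1), 1 of 9 fibroblast genes higher (Thy1), and trophoblast and neural lists had 1 call in each direction. Their mean signals were 5.22 to 5.58 before and 5.08 to 5.43 after induction for endoderm, 4.45 to 4.67 and 4.77 to 4.85 for fibroblast, 5.53 to 5.59 and 5.47 to 5.57 for trophoblast, and 5.62 to 5.81 and 5.72 to 5.79 for neural markers. The part of these shifts in the members' values was not tested.

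The Erg calls lay close to the threshold apart from Rfc3 and Rfc4. Leaving out replicate 1, 2 or 3 left 1, 3 and 2 calls, the methods' t-test gave 0, and 1 fit over all arrays of the larger platform gave 11.

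Runx1 overexpression moved 3 of 39 members past the threshold (7.69%), beside 18.5% of the genes on its array, with 2 lower (background 8.50%) and 1 higher (background 9.99%). Rfc5, another small subunit of the clamp loader, read 11.86, 11.89 and 11.98 in uninduced and 11.56, 11.65 and 11.60 in induced clones. The groups did not overlap, and Rfc5 fell by 0.31 (SE 0.06, limma adjusted p = 0.0284). Orc5, a subunit of the origin recognition complex, went from 10.99, 10.99 and 10.90 to 10.70, 10.75 and 10.58, also without overlap (-0.29, SE 0.06, limma adjusted p = 0.0306). Pola2, the regulatory subunit of polymerase alpha, went the other way, from 9.75, 9.83 and 9.92 to 10.07, 10.01 and 10.28 (0.29, SE 0.07, limma adjusted p = 0.0421). Its groups were separate too, but its second probe set differed by -0.05 and was not called. Another Orc2 probe set was called lower in Runx1 (-0.28, limma adjusted p = 0.0339).

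The Runx1 median was -0.03 over the members and -0.02 over all genes. All 6 genes of the MCM ring were above 0 in Runx1, between 0.02 and 0.22, and none was called by limma. Rrm1 was again high without a call (0.23, limma adjusted p = 0.102). Around the machinery, 2 of 17 licensing regulators were higher and 2 lower, among them the kinase gene Cdc7 (-0.56). Of 14 fork partners 2 were higher and 1 lower, of 15 nucleotide supply genes 2 were higher (Samhd1, 1.24, and Tk1, 0.39), of 24 mitotic genes 1 was higher (Ccnb2, 0.33), and of 13 chromatin assembly genes 1 was higher (Slbp, 0.26). The kinase inhibitors Cdkn1a (0.93), Cdkn1b (0.55), Cdkn2d (0.39) and Cdkn1c (0.31) rose, 4 of 7. Pluripotency markers were lower in 7 of 10 cases (mean signal 12.45 to 12.48 before and 11.96 to 12.07 after induction), and trophoblast markers higher in 3 of 7 (6.38 to 6.53 before and 6.99 to 7.07 after). Fibroblast and primitive endoderm lists had 1 lower call each of 9, and the neural list 2 higher and 1 lower of 6. The part of these shifts in the Runx1 values was not tested. Without replicate 1, 2 or 3 the count of called members was 0 each time, while Cyber-t moderation gave 7.

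No member was called by limma in the other 18 experiments, where 0 to 6 members had an unadjusted p under 0.05, and both the methods' t-test and the Cyber-t kind of test also gave 0. The background there was 0 in 10 of the 18 experiments (Dscr1, Dyrk1a, Ets2, Gabpa, Olig1, Pfkl, Pknox1, RIKEN-1810007M14, Snf1lk and Zfp295). It was 0.00550% for Bach1, 0.0110% for Hunk, 0.0165% for Ripk4, 0.220% for Nrip1 and 0.363% for Pdxk. For Sim2 it was 1.19%, or 0 with the clones paired in the order that the study's table lists, for Olig2 2.50% and for Aire 5.03%.

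The members of smallest p in those experiments were spread over the roles. In Olig2 it was Rpa3, the small subunit of the single-strand binding protein, with 10.44, 10.34 and 10.05 before and 10.04, 10.06 and 9.63 after induction (-0.37, SE 0.07, limma adjusted p = 0.0553). Its groups overlapped because the third uninduced clone was low, although every clone dropped. In Aire it was Orc4, an ATPase subunit of the origin recognition complex, with 9.65, 9.65 and 9.77 before and 9.49, 9.31 and 9.38 after (-0.30, SE 0.08, limma adjusted p = 0.0785). The Orc4 groups were separate, and a dimmer Mcm10 probe set was called lower in Aire (-0.37, limma adjusted p = 0.0362).

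Orc2, a core subunit of the origin recognition complex, led in both Sim2 and Pdxk. In Sim2 it went from 10.30, 10.19 and 9.91 to 9.98, 9.68 and 9.60 (-0.38, SE 0.10, limma adjusted p = 0.150), with overlap. In Pdxk it went from 10.47, 10.11 and 10.47 to 10.04, 9.99 and 9.87 (-0.38, SE 0.11, limma adjusted p = 0.158), without overlap. Gins2, another GINS subunit, led in Gabpa with 9.32, 9.44 and 9.25 before and 9.06, 9.01 and 8.91 after induction (-0.34, SE 0.10, limma adjusted p = 0.287). In Ripk4 Pola2 read 9.83, 9.80 and 9.79 before and 10.08, 10.07 and 10.01 after (0.25, SE 0.08, limma adjusted p = 0.635). Both stood apart in all 3 clones, and neither passed.

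In the remaining experiments the leading member differed by at most 0.23 in size. These were Rrm2, the small subunit of ribonucleotide reductase, in Bach1 (-0.19) and Dyrk1a (-0.20), Pole, the catalytic subunit of polymerase epsilon, in Snf1lk (0.14) and Zfp295 (-0.15), and Pole2, its partner, in Pfkl (0.23). Cdc6 led in Nrip1 (0.22), Gins3 in Hunk (-0.21), Pold1, the catalytic subunit of polymerase delta, in Olig1 (-0.21), Pola1 of polymerase alpha in Pknox1 (-0.15), and Prim2, the large primase subunit, in RIKEN-1810007M14 (-0.18). Orc3 led in Ets2 (-0.12) and Rpa2 in Dscr1 (0.11), and the limma adjusted p of all of these was 0.292 or more. Kinase inhibitors were called without member calls in Aire (Cdkn1c, 0.80, and Cdkn1a, 0.68) and in Nrip1 (Cdkn1c, 2.09).

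Small shifts of the whole set were larger than those of all genes in some experiments. In Ripk4 36 of 41 members were above 0 (87.8%, beside 52.3% of all genes) and in Pdxk 34 (82.9%, beside 48.7%), with medians of 0.07 in both against 0.01 and -0.004 over all genes. Pfkl (median 0.06 against 0.02 over all genes), Aire and Sim2 (0.04 in both, against -0.003 and -0.001) followed. The members are bright, and without the dimmer probe sets the median over genes was higher in these experiments. It was 0.02 in Ripk4, 0.02 in Pdxk, 0.03 in Pfkl, 0.01 in Aire and 0.005 in Sim2. The member medians of Sim2, Aire and Pfkl rested partly on single clones. Without replicate 2 the median was -0.0091 in Sim2 and 0.0197 in Aire, and without replicate 3 it was 0.0264 in Pfkl. On the other side stood Erg and Gabpa (30 members below 0 in each, median -0.06 in Gabpa against -0.03) and Olig1 and Zfp295 (32 below 0 in each, medians -0.03 and -0.04 against -0.004 and -0.01), and Bach1 (27 below 0, median -0.04 against 0.01). Without replicate 2 the median was -0.0035 in Bach1 and -0.1067 in Gabpa. The medians of the 3 single clones shared 1 sign in Ripk4 (0.05 to 0.13), Pdxk (0.04 to 0.12), Pfkl (0.02 to 0.06), Aire (0.01 to 0.06), Erg (-0.15 to -0.06), Gabpa (-0.12 to -0.02), Olig2 (-0.07 to -0.01), Zfp295 (-0.06 to -0.01) and Dscr1 (0.01 to 0.03). In the other experiments the clones lay on both sides of 0. The median of all genes lay farther from 0 than that of the members, on the same side, in Pfkl clone 1 (0.05 against 0.02). The same held in Gabpa clone 2 (-0.031 against -0.023) and Dscr1 clone 2 (0.014 against 0.006). It also held in RIKEN-1810007M14 clone 3 (0.023 against 0.013) and Nrip1 clone 1 (-0.0065 against -0.0045).

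**Figure D3:**
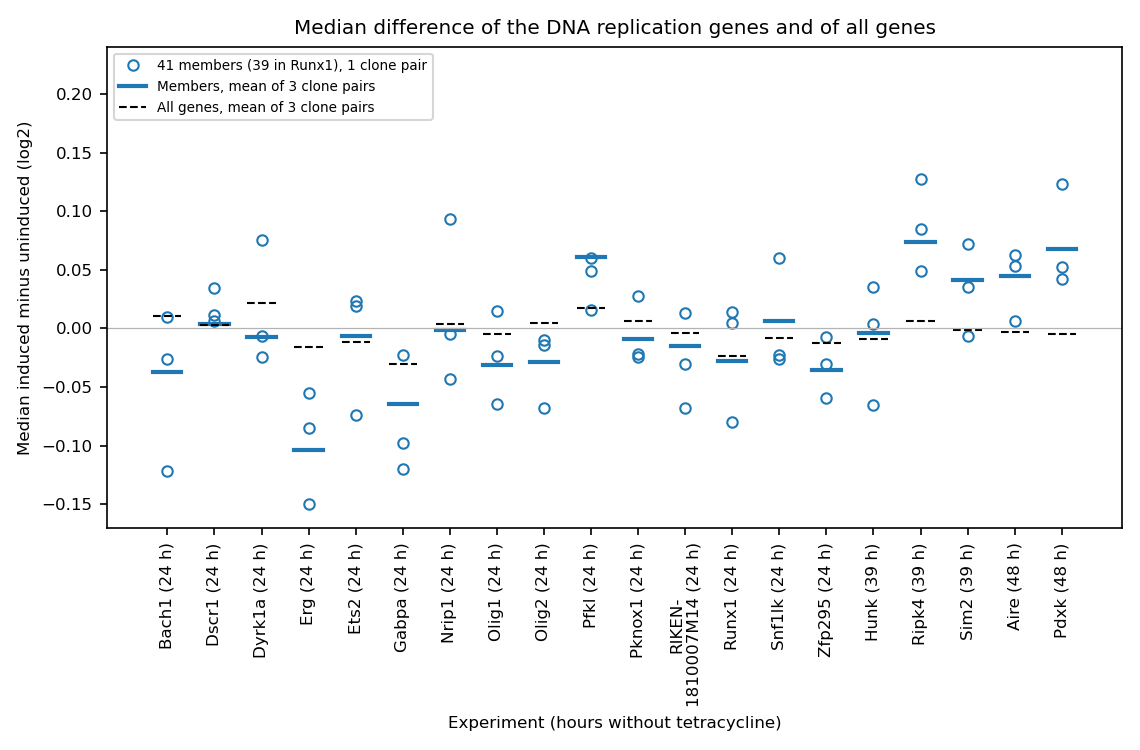
Median induced minus uninduced log2 difference of the members in each clone pair (open circles) and after averaging the 3 pairs (blue bars), with the median over all genes (dashed black) in the 20 experiments. The blue bars run from -0.10 in Erg to 0.07 in Ripk4 and Pdxk, while the dashed bars stay between -0.03 and 0.02.

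The induction time was compared over the 19 experiments on the Mouse 430_2 array, each counted as 1 value. The 5 experiments at 39 or 48 h differed from the 14 at 24 h in 6 of 41 members (14.6%), beside 7.63% of all genes. Of the 6, 5 were higher at the later times (background 5.08%) and 1 lower (background 2.55%). The members' median of later minus 24 h was 0.04 beside -0.01 over all genes, and 33 of 41 members were above 0. Time cannot be told apart from which gene was induced, nor from the level of the arrays. Array medians were 5.33 to 5.68 in the later experiments and 4.89 to 5.33 at 24 h, apart from Snf1lk (5.36 to 5.41).

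Pole2, the second subunit of polymerase epsilon, differed by 0.06 in Hunk, 0.22 in Ripk4, 0.28 in Sim2, 0.09 in Aire and 0.40 in Pdxk. At 24 h its differences ran from -0.25 through a median of -0.04 to 0.23, so that Pfkl overlapped the later group (later minus 24 h 0.26, SE 0.06, limma adjusted p = 0.0155). Cdc45, the helicase partner, was at 0.06 in Hunk, 0.13 in Ripk4, 0.19 in Sim2, 0.12 in Aire and 0.27 in Pdxk, and at -0.24 to 0.08 at 24 h (0.18, SE 0.05, limma adjusted p = 0.0193). All 5 later values of both genes were above 0.

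Orc2 was lower in all 5 later experiments, by -0.12 in Hunk, -0.16 in Ripk4, -0.38 in Sim2, -0.23 in Aire and -0.38 in Pdxk. Its 24 h values went from -0.22 (Pfkl) to 0.15 (Dyrk1a), and the contrast was -0.20 (SE 0.05, limma adjusted p = 0.0306). Prim1, the small primase subunit that makes the RNA primer, was at -0.001 in Hunk, 0.07 in Ripk4, 0.26 in Sim2, 0.04 in Aire and 0.22 in Pdxk, against -0.17 to 0.17 at 24 h (0.18, SE 0.05, limma adjusted p = 0.0398). The Prim1 groups overlapped, Olig2 being the high experiment at 24 h.

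Orc3 was at 0.08 in Hunk, 0.13 in Ripk4, 0.19 in Sim2, -0.04 in Aire and 0.21 in Pdxk, against -0.30 to 0.08 at 24 h, where 1 of 14 experiments was above 0 (0.19, SE 0.05, limma adjusted p = 0.0426). Rfc2, a small clamp loader subunit, was at 0.02, 0.15, 0.15, 0.09 and 0.21 in the same order, against -0.20 to 0.10 at 24 h (0.15, SE 0.05, limma adjusted p = 0.0490). Orc2 and Orc3, subunits of 1 complex, had contrasts of opposite sign. Of the genes around the machinery, 5 of 24 mitotic genes (among them Bub1, 0.31, and Prc1, 0.20) and 4 of 20 licensing regulators (among them Cdc7, 0.22, and Gmnn, 0.19) were called higher and 1 licensing regulator lower (E2f8, -0.21). Of 7 kinase inhibitors 1 was higher (Cdkn1a, 0.31), of 16 nucleotide supply genes 1 (Dhodh, 0.21), and of 14 chromatin genes 2 (Chaf1b, 0.38, and Esco2, 0.26), with Asf1a lower (-0.24), while fork partners had 0 calls by limma. Pluripotency and fibroblast markers had 0 calls by limma, primitive endoderm 1 lower of 9, trophoblast 1 higher of 7 and neural markers 1 in each direction of 6, and their part in the members' contrast was not tested.

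The count depended on single experiments. Without Pdxk, and without Sim2, 0 members were called, and without Aire 3 were. With the 39 h or the 48 h experiments alone 0 passed, while every one of the 6 differences kept its sign under these alternatives. The labels give Pfkl 24 h whereas the study's clone table gives 39 h, and without Pfkl 8 members were called.

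**Figure D4:**
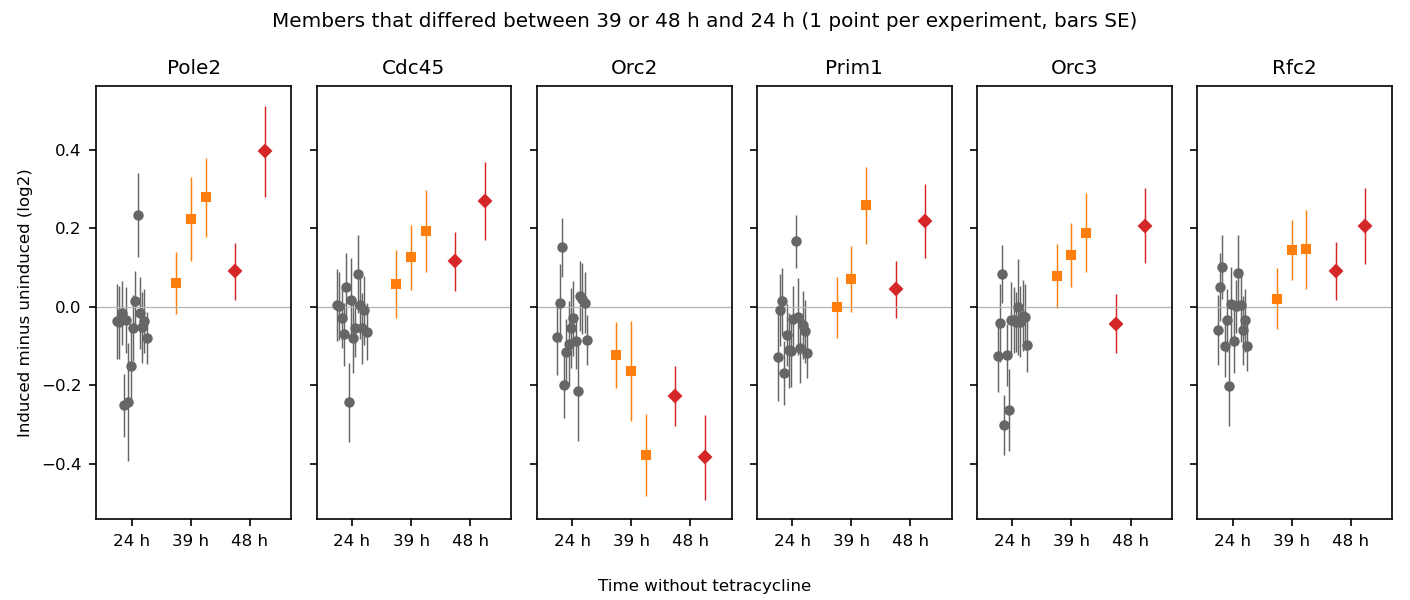
Induced minus uninduced log2 difference (1 point per experiment, bars SE) of the 6 members that differed between 39 or 48 h and 24 h, by time without tetracycline. In the Orc2 panel all 5 later points lie below 0, and in the Pole2, Cdc45 and Rfc2 panels all 5 lie above it.

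Averaged over the 19 experiments, 0 of 41 members departed from 0 by limma (13 genes of all did, 0.0715%), and 6 members (14.6%, beside 15.7% of all genes) had an unadjusted p under 0.05. Orc2 had the smallest p (-0.11, SE 0.03, limma adjusted p = 0.129) and was below 0 in 14 of 19 experiments. Pole (0.07, above 0 in 14 of 19) and Rfc4 (-0.07, above 0 in 4 of 19) followed.

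Whether the response of 1 experiment differed from the mean of the other 18 was tested on the 57 clone pairs of the 19 experiments. A call does not make a response particular to 1 experiment: Pole2 and Prim1 were called higher in both Pdxk and Sim2. Orc3 was called lower in Erg and Gabpa and higher in Sim2. Pdxk and Sim2 are also later experiments of the time contrast, which called Pole2, Prim1, Cdc45, Orc2 and Orc3 too. Calls of these members in Pdxk and Sim2 are therefore not independent of that contrast. Calls were found in 5 experiments, 27 in all. These contrasts reuse the same arrays as the tests above, and the members named from them were chosen after their values were seen.

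In Erg 8 members were lower than in the other experiments (background 11.3%) and 1 higher (background 6.39%). Rfc3 (-0.68), Orc1 (-0.40), Rfc4 (-0.39), Mcm10 (-0.35), Orc3 (-0.29) and Gins4 (-0.28) were joined by Pole2 (-0.28) and Mcm7 (-0.20), and Rrm1 was higher by 0.29, each with a limma adjusted p of 0.0335 or less. Gabpa encodes another ETS factor, and in its experiment 7 members were lower than the mean of the other experiments (17.1%, background 6.69%). They were Pola2 and Gins2 (-0.32 each), Cdc45 (-0.28), Rpa2 (-0.26), Orc3 (-0.25), Rfc2 (-0.22) and Gins1 (-0.21). Arrays of a number deviated together weakly in Gabpa (r = 0.05, -0.18 and 0.17), so its pairing by number has little footing. As paired, all 7 members were lower in each of the 3 Gabpa clones, which held for 21.1% of all genes. The 7 were chosen from these same differences, so the agreement of their clones is no separate evidence. The experiment's own fit called none of the 7 members, nor any other gene. Rpa2, the middle subunit of the single-strand binding protein, was the most even of the 7, from 10.58, 10.64 and 10.64 before to 10.33, 10.39 and 10.38 after induction. Of the 7, Orc3 was shared with the Erg list.

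Pdxk, a pyridoxal kinase gene, had 4 members higher than the mean of the other experiments (9.76%, background 3.62%). They were Pole2 (0.40), Pold2, the second subunit of polymerase delta (0.28), Cdc45 (0.27) and Prim1 (0.24). The second Pdxk clone moved least in each, for example by 0.08 in Pole2 against 0.62 and 0.50 in the others. In Sim2, a bHLH-PAS transcription factor, 4 members were higher (background 6.94%), paired by number, namely Prim1 and Pole2 (0.28 each), Cdt1, the licensing factor (0.24), and Orc3 (0.23), and Orc2 was lower (-0.29, background 5.52%). In Olig2 Rpa3 (-0.36) and Orc5 (-0.34) were lower (background 1.67%). Orc5 read 10.80, 10.74 and 11.06 before and 10.42, 10.41 and 10.75 after Olig2 induction, each clone dropping by 0.31 to 0.39 while the groups overlapped through the third clone.

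In the other 14 experiments 0 members were called against the rest by limma, with 0 to 9 at an unadjusted p under 0.05. Over all 19 experiments, the F test of limma found 11 members whose response differed among experiments (26.8%), beside 22.6% of all genes.

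**Figure D5:**
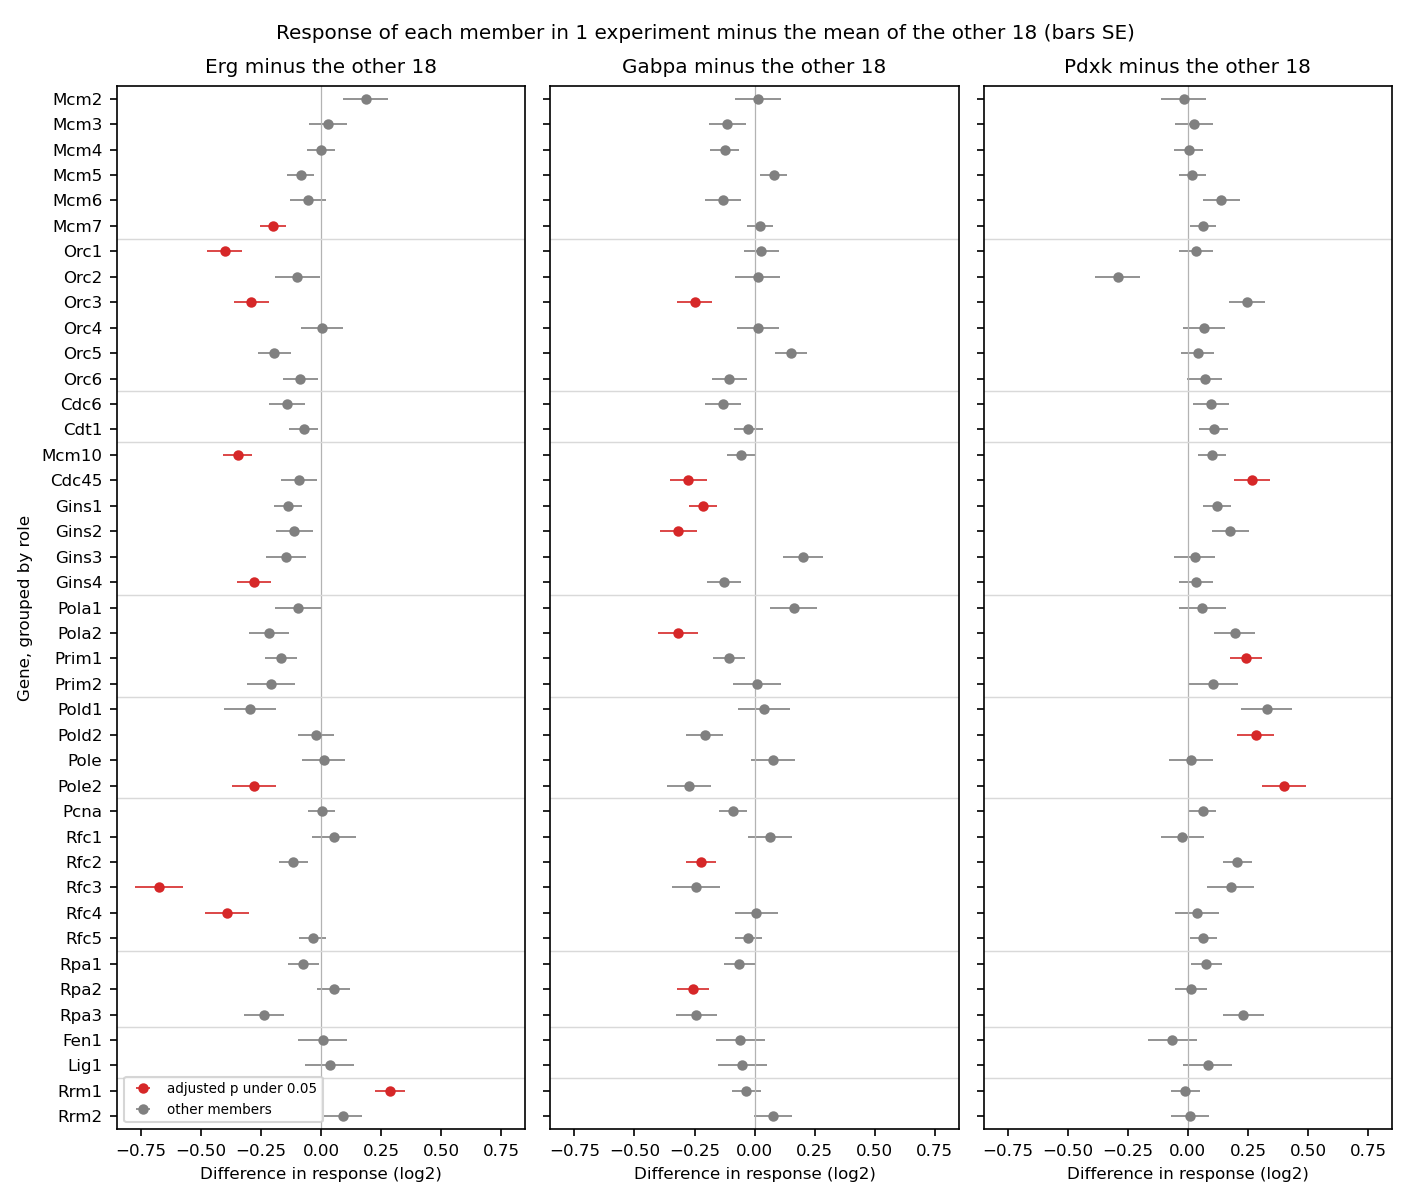
Response of each member in Erg, Gabpa and Pdxk minus its mean response in the other 18 experiments (log2, points with SE, red for an adjusted p under 0.05). Rfc3 in Erg lies farthest from 0 at -0.68, the red points of Gabpa are all below 0 and those of Pdxk all above it.

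Before induction the spread among clones differed between members. The median SD over the 3 uninduced clones was 0.05 to 0.15 for the members and 0.07 to 0.15 for all genes, lower for the members in 17 of 20 experiments. Cdc6 spread most, with an SD of 0.58 in Pknox1, 0.53 in Zfp295, 0.49 in Nrip1 and 0.48 in Snf1lk. The within-clone differences of the members had a mean pairwise r of 0.14 over 57 clone pairs, against 0.007 over all genes. The value was 0.45 among the 4 subunits of polymerases delta and epsilon, 0.32 among the 6 helicase activation genes, 0.27 among the 3 single-strand binding genes and 0.19 in the MCM ring. Fen1 and Lig1, which trim and seal Okazaki fragments, went against each other (r = -0.55). The points of these correlations share arrays and normalization, and they are given as a description.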

How the data were processed

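RNA of 3 clones per gene was hybridised before and after induction to the Mouse 430_2 array (19 experiments, 114 arrays) or the Mouse 430A_2 array (Runx1, 6 arrays). The authors made the deposited log2 values by RMA in affy (Bioconductor), a robust probe-level summary that shrinks small differences of dim probe sets. Versions are not given in the sources used here. Array medians show that the 6 arrays of an experiment were normalized together. Probe sets were named through the array annotation (34958 of 45101 and 20393 of 22690 have 1 gene), and the members have 91 and 72 probe sets. A probe set without a value in the Sim2 table was left out there.

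limma 3.58.1 (R 4.3.3) was run per experiment with clones as blocks and moderated variances, and adjusted over all probe sets (threshold 0.05). Counts and backgrounds use 1 probe set per gene. Pairing follows the replicate numbers, and the study's tables name the same clones before and after induction. For Sim2 they list the clones in another order after induction, so its pairing by number is in doubt. Arrays of a number deviated together (r above 0.1) in 54 of 60 pairs and in all 3 pairs of 15 experiments. In Gabpa r was 0.05, -0.18 and 0.17. Fits over experiments used 1 mean difference per experiment (mean response, time) or the 57 clone pairs (1 experiment against the others, F test). Members, roles and 11 further gene lists were chosen with earlier results of these data known. Values are given for members called in an experiment, in the mean or in the time contrast (at most 6 each) and for the member of smallest p elsewhere.

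Alternatives were no replicate block, the methods' t-test, a Cyber-t kind of test (prior weight 10, window 101), trend and robust moderation, an FDR of 1%, a second quantile normalization, no dim probe sets, the mean over probe sets, 1 fit over 114 arrays, leaving out each replicate or experiment, and a crossed Sim2 pairing. The fits were tested on simulated data. Other tables used Python 3.11.15, numpy 2.4.6 and pandas 2.3.3, and figures matplotlib 3.10.9. Precision is limited by having 3 arrays per state.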

Additional observations from a re-analysis of the deposited data

Results flagged for a closer look

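The response at 39 or 48 h differed from that at 24 h, by limma over 19 experiments, in Orc2 (-0.20), Orc3 (0.19), Cdc45 (0.18), Prim1 (0.18), Pole2 (0.26), Rfc2 (0.15), given as later minus 24 h on the log2 scale. The response of 1 experiment differed from the mean of the other 18, by limma over 57 clone pairs, in the following members. In Erg these were Rrm1 (0.29), Orc3 (-0.29), Gins4 (-0.28), Orc1 (-0.40), Rfc4 (-0.39), Pole2 (-0.28), Rfc3 (-0.68), Mcm10 (-0.35), Mcm7 (-0.20). In Gabpa they were Orc3 (-0.25), Rpa2 (-0.26), Cdc45 (-0.28), Rfc2 (-0.22), Gins2 (-0.32), Pola2 (-0.32), Gins1 (-0.21). In Pdxk they were Cdc45 (0.27), Prim1 (0.24), Pole2 (0.40), Pold2 (0.28), in Sim2 Orc3 (0.23), Orc2 (-0.29), Prim1 (0.28), Cdt1 (0.24), Pole2 (0.28) and in Olig2 Orc5 (-0.34), Rpa3 (-0.36). The time contrast rests on Pdxk and Sim2, without either of which 0 members were called.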

How the results depend on the processing

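No called value changed sign under any alternative run. In Erg the 6 calls became 2 with no replicate block, 0 by the methods' t-test, 10 with trend and robust moderation, 1 at an FDR of 1%, 11 in 1 fit over all Mouse 430_2 arrays, and 1 to 3 when a replicate was left out. In Runx1 the 3 calls became 1 by the methods' t-test, 7 by the Cyber-t kind of test, 9 with trend and robust moderation, 0 at an FDR of 1%, 5 without dim probe sets, and 0 to 0 when a replicate was left out. Without the replicate block Runx1 kept a count of 2, and the crossed Sim2 pairing gave 0 members and 0 of all genes, against 216 genes paired by number. Experiments with 0 calls gained some in 1 fit over the arrays (Gabpa 9, Pdxk 6, Sim2 4, Olig2 2, Aire 1), with trend and robust moderation, without dim probe sets or with the mean over probe sets (Olig2 2 and Aire 1 each time), and when a replicate was left out (Pdxk 0 to 5, the 5 without replicate 2). The median of Pfkl moved to 0.0188 with the mean over probe sets and to 0.0264 to 0.0406 when a replicate was left out, and that of Sim2 to -0.0091 to 0.0730. The 6 time calls became 3 without Aire, 0 without Pdxk, 0 without Sim2, 0 at 48 h alone and 0 at 39 h alone. The 0 calls of the mean response stayed at 0 under 21 of 21 alternatives, and counts against the other experiments stayed within 1.5 times under trend and robust moderation. Rfc3 in Erg stayed called under 11 of 12 alternatives and Rfc4 under 9, against 3 of 12 for Orc3. The causes were not tested. The smallest member difference called within an experiment was 0.29 in size, and 789 of 818 values lay within 0.25 of 0. Larger differences also went uncalled, among them Pole2 in Pdxk (0.40) and Orc2 in Sim2 (-0.38). A difference without a call is therefore not shown to be absent, whether smaller or larger than 0.29.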
